A study of Mus musculus with 6 samples.

Results

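The proteasome is the barrel-shaped protease that degrades ubiquitin-tagged proteins in the cytosol and nucleus. Its 20S core is a stack of alpha and beta rings, in which the alpha subunits (Psma genes) gate the entry pore and the beta subunits (Psmb genes) form the chamber, with the active sites carried by Psmb5, Psmb6 and Psmb7. The 19S regulatory particle binds, unfolds and feeds substrates through a ring of ATPases (Psmc genes) and a set of non-ATPase subunits (Psmd genes), while the activators encoded by Psme genes cap the core without that ATPase ring. Lymphocytes and thymic cells also make an immunoproteasome, in which Psmb8, Psmb9 and Psmb10 replace the 3 constitutive catalytic subunits and alter the peptides offered on class I molecules. The constitutive subunits were taken here as every probe set that the platform annotation assigns to exactly one gene with a Psma, Psmb, Psmc, Psmd or Psme symbol followed by a number, without Psmb8, Psmb9 and Psmb10. This gave 48 probe sets of 37 genes, among 8251 genes named on the array. The rule is by name, so it also takes in Psmd5, Psmd9 and Psmd10, which are chaperones of 19S assembly rather than subunits of the finished particle. It left out 2 probe sets of Psme2, which the annotation assigns to Psme2 and Psme2b together. No probe set was named for Psmb11, the catalytic subunit of the thymic cortex epithelium, or for Psma8.

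Total RNA of mouse double-negative thymocytes, the T cell precursors without CD4 and CD8, was measured on 6 single-colour Affymetrix arrays, 3 from RAG1-deficient animals and 3 from RAG1/Ezh2 double mutants. By these labels both groups share the deficiency in RAG1, a part of the recombinase that rearranges antigen receptor genes, and they differ in Ezh2, the histone methyltransferase of Polycomb repressive complexes. The RAG1-deficient arrays of the numbered and Thy styles carry WT in their titles. The labels do not state how, or in which cells, either gene was inactivated, nor the animals' strain, sex or age. Nothing in them ties the arrays to individual animals either, so a p-value here reflects the variation among these arrays and could be purely technical. Sample titles are worded in 3 styles, here called numbered (replicate 1), Rag (replicate 2) and Thy (replicate 3), with 1 array per group in every style. The titles of the Rag style name T cells and do not state the double-negative stage.

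The Ezh2 probe set read 1434.7, 1641.0 and 1789.5 in the RAG1-deficient arrays, in replicate order, and 291.5, 650.6 and 723.6 in the double mutants, so the groups did not overlap. Ezh2 was lower by the paired limma fit, with a log2 difference of -1.60 (SE 0.20) and an adjusted p of 0.0261, which was 0.332 in the fit without pairs. Rag1 transcript was measured on every array, at 6932.9, 7240.7 and 7264.0 in the RAG1-deficient group and 5394.4, 5225.7 and 5170.8 in the double mutants at the brighter of its probe sets. Since the labels do not say which part of the gene is missing, these values do not check the RAG1 deficiency, for which the labels were taken as given. RAG1-deficient replicate 1 went against its label, with a Cd8a intensity of 2973.0 and a Cd8b1 intensity of 8425.8. The other 5 arrays lay between 14.7 and 81.3 for Cd8a and between 11.2 and 164.4 for Cd8b1. Cd4 read 699.2 on that replicate 1 array and between 52.3 and 273 on the rest. The Cd4 log2 difference was -1.13 (SE 0.22), with -1.29 for the numbered, -0.74 for the Rag and -1.37 for the Thy pair. Its groups overlapped, and Cd4 was not called, with limma adjusted p of 0.0827 in the paired fit and 0.9999 without pairs. Of 7 listed marker genes of natural killer and innate lymphoid cells, 5 were on the array, and their summed intensity was 2463 to 3980 in the RAG1-deficient arrays and 7199 to 9687 in the double mutants. Gzma made up most of that sum, at 1244.4 to 2796.2 against 4982.3 to 8096.4. Gzma and Gzmb were called higher in the double mutant, with limma adjusted p of 0.00356 and 0.0261 in the paired fit and 0.267 and 0.542 without pairs, whereas Ncr1 was at 0.45, Il2rb at -0.02 and Klrd1 at -0.32 in log2, and none of these 3 was called. All 10 tested probe sets of the cell cycle list were above 0 in the log2 difference, with a median of 0.37 and 0 called. Sums over all 13 probe sets of that list, tested or not, were 21560 to 22105 against 26366 to 31377. Below 0 were all 10 probe sets of the double-negative thymocyte list (median -0.13, Ptcra at -0.66 and the brighter Rag1 probe set at -0.44, both without overlap). So were all 6 of the antigen-presenting list (median -0.48) and the 4 tested of the 21 in the B lineage list (median -0.28), with 0 called in each. Sums of these 3 lists, over tested and untested probe sets, overlapped between the groups. They were 76180 to 111796 against 72201 to 105767, 4241 to 28093 against 4151 to 19134, and 4435 to 6488 against 3855 to 4673. The myeloid list was mixed, with 4 of its 6 tested probe sets below 0, a median of -0.40 and 0 called. Above 0 in that list were S100a8 at 0.28 (SE 0.85) and S100a9 at 0.09 (SE 0.86). The part of these markers in the values given here was not tested, and no marker was listed at 0.

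Differences between the genotypes in the proteasome subunits were small, and none passed the test. Of the 48 probe sets, 41 of 35 genes were bright enough to test. In the paired limma fit over 7642 probe sets, 0 of the 41 had an adjusted p under 0.05 in either direction, beside 0.563% of all tested probe sets called higher and 0.105% called lower. The lowest adjusted p among them was 0.264, for Psma4. In the fit without pairs the count was also 0, beside 0.0393% of all probe sets called, and the lowest adjusted p was 0.9999. Without adjustment, 4 of the 41 had a p under 0.05 and were higher in the paired fit, beside 7.73% of all, and 0 were lower, beside 5.4%. The fit without pairs had 0 at that level.

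The 41 log2 differences, as double mutant minus RAG1-deficient, ran from -0.49 to 0.38 with a median of 0.05, against a median of -0.002 over all tested probe sets. Above 0 lay 28 of them (68.3%), compared with 49.6% of all tested probe sets. The subunits share the same 6 arrays and are not independent of each other, so these shares are descriptions without a test. Each probe set's 95% interval in the paired fit bounds how large a difference these arrays leave room for, if the title-style pairing holds. For 40 of the 41 probe sets (97.6%) the whole interval lay within a 2-fold difference in either direction, as it did for 85.8% of all tested probe sets. Within 1.5-fold lay 35 of the 41 intervals (85.4%), against 46.0% of all. The subunit probe sets were also brighter, with a median intensity of 2052.7 against 456.7, and the shares were not adjusted for brightness. The probe set whose interval passed 2-fold was the dim Psmd11 probe set 160304_r_at, with an interval from -1.40 to 0.42. The median SE of the subunits was 0.125, ranging from 0.0988 to 0.389, and that of all tested probe sets was 0.174. In the fit without pairs every subunit SE was larger, from 0.194 (Psmc1) to 0.590 (Psmd11 probe set 94796_at). Intervals without pairs would be wider and are not given here.

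**Figure D1:**
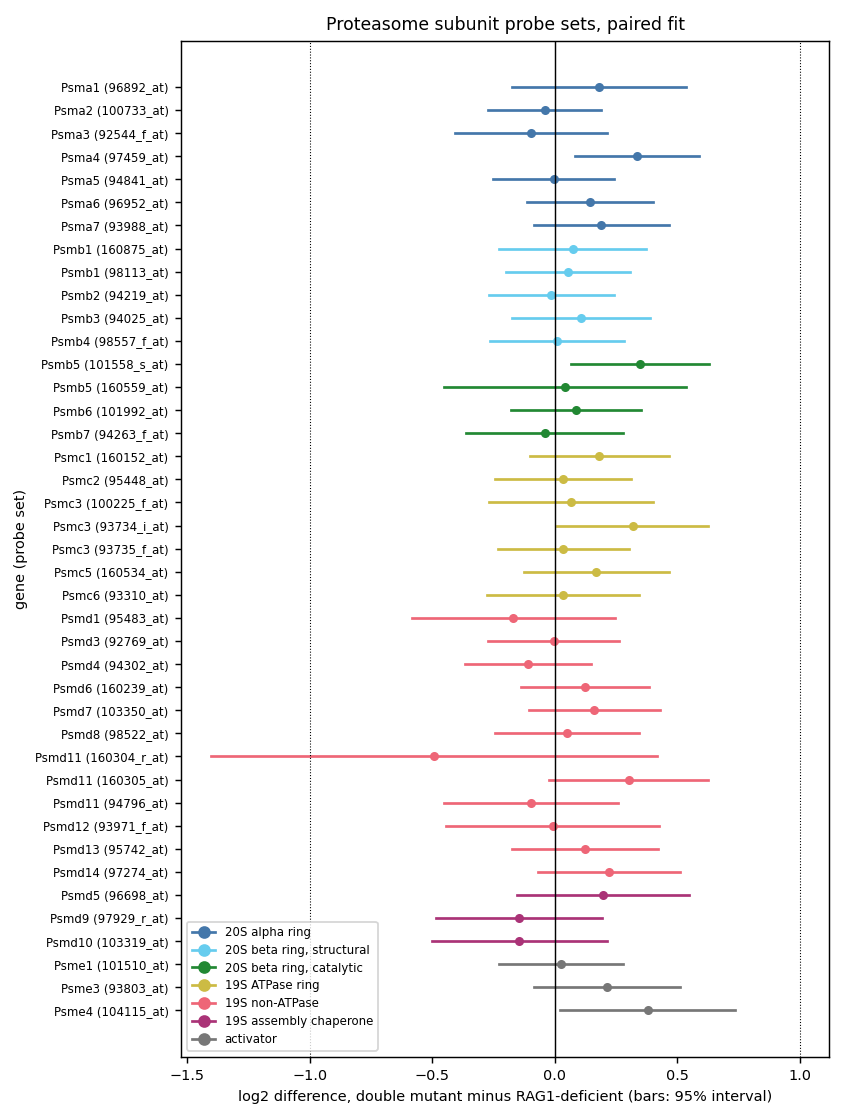
Log2 difference (double mutant minus RAG1-deficient, x axis) of each of the 41 tested subunit probe sets (y axis), coloured by role, from the paired limma fit on 3 arrays a group; bars are 95% intervals and dotted lines mark 2-fold. The points lie between -0.49 and 0.38, and 1 interval, that of Psmd11 probe set 160304_r_at, crosses a dotted line.

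Grouped by role, the alpha ring had all 7 of its genes tested, with 4 above 0, 3 below and a median log2 difference of 0.14. Psma4, an alpha subunit, had intensities of 3308.5, 4488.4 and 2866.7 in the RAG1-deficient arrays and 4049.4, 5313.4 and 3974.8 in the double mutants. The double mutant array was the brighter in all 3 title-style pairs, and yet the groups overlapped, because RAG1-deficient replicate 2 was brighter than double mutant replicates 1 and 3. The log2 difference was 0.33 (SE 0.11, 95% interval 0.08 to 0.59), equal to 1.26-fold on this scale, and the limma adjusted p was 0.264. Psma3, another alpha subunit, was the lowest of the ring, at 4282.9, 10094.1 and 7855.0 in the RAG1-deficient arrays and 4684.6, 10164.7 and 5808.6 in the double mutants. Its log2 difference was -0.10 (SE 0.13), with 1 pair lower and the other two higher. The other 5 alpha subunits lay between -0.04 (Psma2) and 0.19 (Psma7).

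In the beta ring, the 3 catalytic genes had 4 tested probe sets, 3 of them above 0, with a median of 0.06. Psmb5, which carries the chymotrypsin-like activity, gave 2295.1, 1609.6 and 1691.8 in the RAG1-deficient arrays and 2556.0, 2229.1 and 2281.8 in the double mutants at probe set 101558_s_at. Again all 3 pairs were higher in the double mutant while the groups overlapped, here through the bright RAG1-deficient replicate 1, the array with CD8 transcripts. The log2 difference was 0.35 (SE 0.12, 95% interval 0.07 to 0.63, limma adjusted p 0.293), and it was 0.45 when both arrays of replicate 1 were left out. A dimmer Psmb5 probe set, 160559_at, read 177.5, 96.7 and 200.2 against 203.9, 88.6 and 208.1, a difference of 0.04 (SE 0.21) with an interval from -0.45 to 0.54. The identifier of the brighter one carries the suffix for probe sets that can detect related transcripts.

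Psmb6, the caspase-like subunit, had intensities of 3565.2, 3973.4 and 3005.3 in the RAG1-deficient arrays and 3607.8, 4782.0 and 2950.4 in the double mutants, a log2 difference of 0.09 (SE 0.11, 95% interval -0.18 to 0.35). Psmb7, the trypsin-like subunit, read 2453.1, 2453.5 and 2359.7 against 2628.6, 2713.1 and 1825.4, a difference of -0.04 (SE 0.14, 95% interval -0.36 to 0.28). Both catalytic subunits overlapped between the groups, and in each the Thy pair was the only one lower in the double mutant. The structural beta subunits Psmb1, Psmb2, Psmb3 and Psmb4 had 5 tested probe sets, 4 above 0, with a median of 0.05 and a range of -0.01 to 0.11. Those of Psmb1 were close to each other, at 0.07 and 0.05.

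The ATPase ring of the 19S particle had 7 tested probe sets of 5 genes, all 7 above 0, with a median of 0.06 and a range of 0.03 to 0.32. All 7 were above 0 within the Rag pair, and 5 of the 7 within each of the other pairs. Psmc3, an ATPase, had its highest difference at probe set 93734_i_at, with 763.9, 1112.2 and 816.3 in the RAG1-deficient arrays and 1085.7, 1226.7 and 1023.2 in the double mutants. Each pair was higher in the double mutant, and the RAG1-deficient array of the Rag style exceeded both other double mutant arrays. The difference was 0.32 (SE 0.13, 95% interval 0.01 to 0.63, limma adjusted p 0.373). The other Psmc3 probe sets, 93735_f_at and 100225_f_at, gave 0.03 and 0.06, and their identifiers carry a related-transcript suffix. The suffix of 93734_i_at is of another kind. Psmc1, another ATPase of the ring, held the 1 tested subunit probe set whose groups did not overlap, and is described because its values were seen to do so. Among the untested ones, a dim probe set of the ATPase Psmc5 also did not overlap, at 25.1, 26.9 and 38.2 against 47.3, 51.3 and 39.4. The Psmc1 intensities were 1468.6, 1422.0 and 1315.7 in the RAG1-deficient arrays and 1487.0, 1697.7 and 1596.2 in the double mutants. For Psmc1 the gap between the groups was small, the difference was 0.18 (SE 0.12, 95% interval -0.10 to 0.47), and the limma adjusted p was 0.585. Of all tested probe sets, 4.21% were without overlap and higher and 2.92% without overlap and lower, where the 41 tested subunit probe sets had 1 and 0.

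Of the non-ATPase subunits of the 19S particle, 12 probe sets of 10 genes were tested, 6 above 0 and 6 below, with a median of 0.02. Psmd14, the deubiquitinase that removes ubiquitin chains from arriving substrates, read 1533.9, 1686.4 and 1860.9 in the RAG1-deficient arrays and 1847.5, 2195.7 and 1889.4 in the double mutants. All pairs were higher in the double mutant, by between 0.02 and 0.38, and the groups overlapped through replicate 3 of the RAG1-deficient group. The log2 difference was 0.22 (SE 0.12, 95% interval -0.07 to 0.51, limma adjusted p 0.502). The ubiquitin receptor Psmd4 read 3340.0, 3854.0 and 2516.0 against 2872.4, 3879.9 and 2316.9, a difference of -0.11 (SE 0.11, 95% interval -0.36 to 0.15). Psmd1, a large scaffold subunit, read 1108.6, 2492.5 and 1457.0 against 1237.3, 2535.7 and 896.9, a difference of -0.17 (SE 0.18, 95% interval -0.58 to 0.25). In Psmd1 the negative sign came from the Thy pair, at -0.69, while the numbered and Rag pairs were at 0.16 and 0.02. Without the Thy pair the difference was 0.09.

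Psmd11, a subunit of the lid, was the 1 gene of 4 with at least 2 tested probe sets whose probe sets differed in sign. Probe set 160305_at read 434.6, 832.8 and 652.0 in the RAG1-deficient arrays and 616.9, 941.5 and 777.2 in the double mutants, with all pairs higher and a difference of 0.30 (SE 0.14, 95% interval -0.02 to 0.62). Probe set 94796_at read 2510.9, 718.9 and 2635.4 against 2764.0, 747.3 and 1879.2, a difference of -0.10 (SE 0.15). The dim probe set 160304_r_at read 82.1, 154.3 and 182.4 against 103.8, 33.5 and 168.4, a difference of -0.49 (SE 0.39), with double mutant replicate 2 below all other arrays. Without the Rag pair its difference was 0.08. The gene thus had no single direction on this array.

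The assembly chaperones Psmd5, Psmd9 and Psmd10 were tested with 1 probe set each, 1 above 0 and the other two below, with a median of -0.15. Psmd10, known as gankyrin, read 358.4, 689.8 and 361.7 in the RAG1-deficient arrays and 279.0, 670.6 and 346.0 in the double mutants. It was the 1 subunit-named probe set lower in all 3 pairs, beside 17.1% of all tested probe sets, and its groups overlapped widely, with a difference of -0.15 (SE 0.15, 95% interval -0.50 to 0.21). Psmd9 read 572.4, 679.5 and 696.8 against 534.4, 685.4 and 539.1, a difference of -0.15 (SE 0.14). Higher in all 3 pairs were 13 of the 41 probe sets, beside 18.8% of all.

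The activators had 3 tested probe sets, all above 0, with a median of 0.21. Psme4, the nuclear activator PA200, had the highest difference of all the tested subunit probe sets, with intensities of 450.4, 485.6 and 662.9 in the RAG1-deficient arrays and 722.0, 551.7 and 825.8 in the double mutants. The double mutant array was brighter in every pair, by 0.65 for the numbered pair, 0.18 for the Rag pair and 0.31 for the Thy pair, and the groups overlapped through RAG1-deficient replicate 3. The log2 difference was 0.38 (SE 0.15, 95% interval 0.02 to 0.74), equal to 1.30-fold on this scale, with a limma adjusted p of 0.356. Leaving out both arrays of replicate 1, one of which held the CD8 transcripts, brought it to 0.24. Psme3, the nuclear activator PA28 gamma, read 641.3, 803.6 and 757.6 against 768.4, 903.9 and 884.7, a difference of 0.21 (SE 0.13, 95% interval -0.09 to 0.51), again higher in each pair. Psme1, the interferon-inducible PA28 alpha, read 5083.1, 11068.1 and 5383.4 against 5487.8, 9984.3 and 5848.5, a difference of 0.03 (SE 0.11, 95% interval -0.23 to 0.28).

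**Figure D2:**
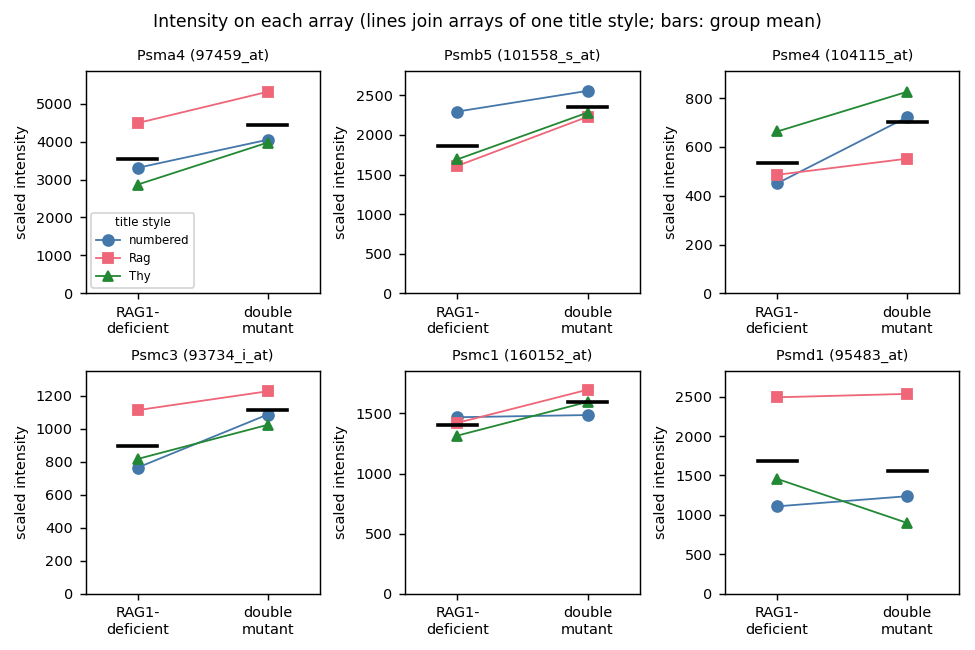
Deposited scaled intensity (y axis, from 0) on each array for 6 subunit probe sets in the RAG1-deficient and double mutant groups (x axis); lines join the arrays of one title style and black bars are group means of 3 arrays. In Psma4, Psmb5, Psme4, Psmc3 and Psmc1 each line goes up, in Psmd1 the Thy line goes down, and in 5 of the 6 panels the groups overlap.

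The untested probe sets were 7, with intensities between 0.9 and 102.4. They include the only probe sets of the ATPase Psmc4 and of Psmd2, the large ubiquitin-binding scaffold of the 19S base. Psmd2 read 34.1, 22.5 and 63.2 in the RAG1-deficient arrays and 82.1, 38.0 and 98.8 in the double mutants, and Psmc4 read 74.6, 9.6 and 24.0 against 26.9, 7.5 and 26.7. Both were too dim on this array to be tested. The other 5 were further probe sets of Psme1, Psmc5, Psmb1 and Psmb4, each of which also had a brighter, tested one.

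Promoters are shown for the 3 genes with an unadjusted p under 0.05 that the RefSeq promoter table holds, and for the catalytic subunit Psmb6, because the factor Nfe2l1 is known to drive proteasome genes together through antioxidant response elements. Each sequence runs 5′ to 3′ from 250 bases before to 50 after the annotated start on assembly GRCm38.p6, and capitals mark matches to TGACNNNGC or TGAGNNNGC on either strand.
Psma4: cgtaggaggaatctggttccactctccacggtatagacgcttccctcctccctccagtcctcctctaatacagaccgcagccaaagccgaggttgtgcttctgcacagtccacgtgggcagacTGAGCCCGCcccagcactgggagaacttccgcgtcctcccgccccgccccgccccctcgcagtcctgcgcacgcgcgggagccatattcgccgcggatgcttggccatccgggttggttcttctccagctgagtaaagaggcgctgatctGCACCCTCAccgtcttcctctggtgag
Psmb5: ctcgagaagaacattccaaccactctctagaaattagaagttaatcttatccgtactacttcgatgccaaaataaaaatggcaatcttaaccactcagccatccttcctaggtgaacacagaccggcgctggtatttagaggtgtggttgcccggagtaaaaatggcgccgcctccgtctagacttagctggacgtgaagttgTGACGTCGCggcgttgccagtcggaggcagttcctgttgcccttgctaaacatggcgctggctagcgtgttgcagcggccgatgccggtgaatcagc
Psmb6: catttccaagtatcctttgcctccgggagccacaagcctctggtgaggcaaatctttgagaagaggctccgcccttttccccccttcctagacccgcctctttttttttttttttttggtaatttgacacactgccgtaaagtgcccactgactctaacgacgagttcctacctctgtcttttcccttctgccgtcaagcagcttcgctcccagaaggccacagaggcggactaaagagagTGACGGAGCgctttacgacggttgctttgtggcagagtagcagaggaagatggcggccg
Psme4: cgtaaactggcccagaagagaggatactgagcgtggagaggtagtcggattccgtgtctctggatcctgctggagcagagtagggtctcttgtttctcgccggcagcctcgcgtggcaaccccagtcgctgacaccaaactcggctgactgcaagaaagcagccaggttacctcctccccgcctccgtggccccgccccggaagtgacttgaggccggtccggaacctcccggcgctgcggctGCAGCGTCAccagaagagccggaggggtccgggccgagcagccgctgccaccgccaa
The Psma4 window is chr9:54950609-54950908 on the plus strand, with matches to TGAGNNNGC whose first base is at -127 and, in reverse, at 24 from the start site. Psmb5 lies at chr14:54617946-54618245 on the minus strand, with a match to TGACNNNGC at -47. Psmb6 lies at chr11:70525107-70525406 on the plus strand, with a match at -9, and Psme4 at chr11:30771525-30771824 on the plus strand, with a match in reverse at -7.

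The table held 33 promoters of 31 of the 37 genes, and 32851 promoters in all. Psmb1, Psmb2, Psmb7, Psmc3, Psmd3 and Psmd7 were not in it. TGACNNNGC was found in 6 of the 33 subunit promoters (18.2%) and in 12.4% of all promoters, TGAGNNNGC in 12 (36.4%) and in 17.6% of all, and at least one of these motifs in 16 (48.5%) and in 27.8% of all. The ETS motif CCGGAAGT was present in 9 (27.3%), compared with 3.89% of all promoters, and GGAAGTG, which overlaps it by GGAAGT, in 8 (24.2%), compared with 11.0%. The GC box GGGCGG was found in 20 (60.6%) and in 35.7% of all. For CCAAT the shares were 36.4% and 37.4%, for TATAAA 9.09% and 13.6%, for CACGTG 9.09% and 7.15%, and for GCCATNTTG 3.03% and 2.51%. Subunit promoters were also richer in bases G and C, with a median GC content of 59.0% against 52.7% and a median of 20 CpG sites against 7, and the motif shares were not adjusted for base composition. A match is a run of letters, and none of these data measured binding at it.

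Subunit levels varied with title style, as did those of most probe sets on the array. The span between the highest and the lowest title style, each taken as the mean of its 2 arrays, had a median of 0.61 in log2 over the 41 probe sets, against 0.62 over all tested probe sets. It exceeded the size of the genotype difference in 39 of the 41 probe sets, as in 88.4% of all. These measures are unlike, since a range over 3 means of 2 arrays tends to exceed a difference between 2 means of 3 arrays without any effect. Most subunits were brightest on the Rag-style arrays. Relative to the mean of the other styles they had a median of 0.34 there and were higher for 33 of 41 probe sets, whereas all tested probe sets had a median of -0.12 and were higher for 3210 of 7642. The Rag-style arrays also had the lowest share of probe sets above the test's intensity minimum of 86.5, at 55.2% and 55.3%, against 61.5% to 64.3% on the other four. Whether that share has a part in the brighter subunits was not tested. Erythroid Hba-a1 had the largest span of all tested probe sets, at 5.63. It read 374.6 and 794.2 on the Thy-style arrays and 16351.6 to 30030.9 on the rest. Krt8, of the thymic epithelium list, read 27.3 and 48.7 against 521.9 to 1131.5, while Epcam of that list was not low there, at 235.9 and 193.0. The part of such transcripts of other cell types in the subunit levels was not tested.

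Individual subunits show the size of this variation. Psmd1 was at 2492.5 and 2535.7 on the Rag-style arrays and between 896.9 and 1457.0 on the rest, a Rag-style difference of 1.10 in log2. Psme1 behaved alike, at 11068.1 and 9984.3 compared with 5083.1 to 5848.5, a difference of 0.95. Psmd11 probe set 94796_at went the other way, at 718.9 and 747.3 compared with 1879.2 to 2764.0. Its span of 1.81 was the largest of the 41, and the sister probe set 160305_at was brightest on the same arrays. Summed over the 41 probe sets, the intensity was 96166, 124242 and 94171 in the RAG1-deficient arrays and 101981, 132410 and 93433 in the double mutants, and the highest sums were those of both Rag-style arrays. In bulk RNA, a change in the number of cells of a type and a change in RNA per cell cannot be told apart.

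**Figure D3:**
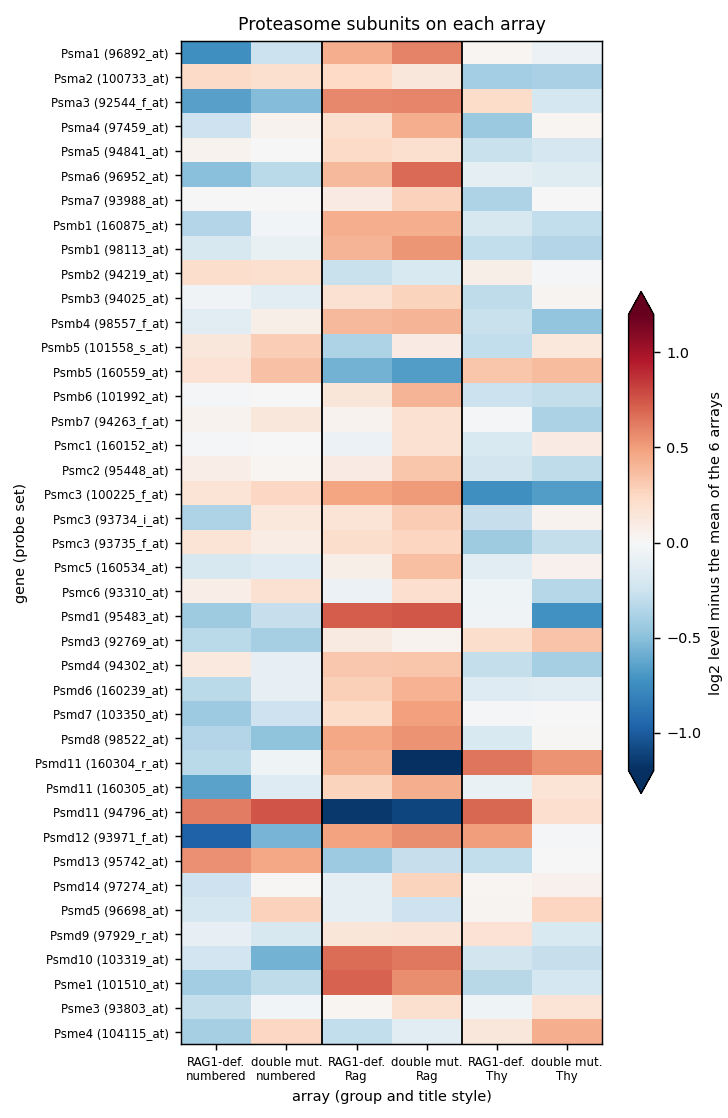
Log2(intensity + 23) minus the mean over the 6 arrays (colour scale cut at ±1.2) for each of the 41 tested subunit probe sets (rows, in order of role) on each array (columns, in title-style pairs separated by black lines). Both Rag-style columns are above the row mean in most rows, while Psmd11 probe set 94796_at is below it there.

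The medians over the 41 probe sets within the pairs were 0.11 (numbered), 0.08 (Rag) and 0.03 (Thy), with 29, 32 and 23 of the 41 above 0. Without both arrays of the numbered style, and so without the array with CD8 transcripts, the median of the subunits was 0.05, as with all arrays. The median depended more on single arrays when pairs were ignored, from -0.06 without double mutant replicate 2 to 0.20 without RAG1-deficient replicate 2, both of the Rag style.

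Genes that work with the proteasome were described in the same way, from lists chosen by function, and 0 of their tested probe sets were called in either fit. The list of immunoproteasome subunits and class I peptide loading genes had 8 tested probe sets, 6 above 0, with a median of 0.06. Psmb8 was at 0.01, Psmb9 at 0.24 and Psmb10 at -0.18, so the 3 inducible catalytic subunits had no common sign. Tap1, which carries peptides into the endoplasmic reticulum, was at 0.41 (SE 0.17, limma adjusted p 0.371) with all arrays. It passed only without the Rag pair, at 0.66 with a limma adjusted p of 0.0481. Under the other settings the limma adjusted p of Tap1 was at least 0.364. Tapbp, of the same list, was at -0.27 (SE 0.14, limma adjusted p 0.453) at probe set 162104_f_at, lower in every pair. Its other tested probe sets, 100154_at and 102689_at, were at 0.08 (SE 0.13) and 0.03 (SE 0.14).

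Among assembly, inhibitor and bound factors, 11 of 15 listed symbols were on the array, where Sem1 and Shfm1 name the same gene, and 6 of their 13 tested probe sets were above 0, with a median of -0.03. Pomp, the chaperone that matures the beta ring, read 3377.0, 6239.1 and 2978.2 in the RAG1-deficient arrays and 5180.2, 6966.0 and 4374.4 in the double mutants. It was higher in every pair, with a difference of 0.44 (SE 0.13, 95% interval 0.15 to 0.73) and a limma adjusted p of 0.207, and the groups overlapped through the bright RAG1-deficient replicate 2. Akirin2, which takes part in the nuclear import of proteasomes, was at -0.26 (SE 0.12, -0.16 without the numbered pair) at probe set 93767_i_at and -0.13 at probe set 93768_f_at.

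Of a list of ubiquitin, ubiquitin-activating and substrate delivery genes, 5 of 15 symbols were on the array, where Ufd1 and Ufd1l name the same gene. These were the delivery factors Rad23b, Ubqln1, Ubqln2, Vcp and Ufd1, so the list gave no value for a ubiquitin or ubiquitin-activating gene. Of their 9 tested probe sets, 8 were below 0, with a median of -0.15. Ufd1, a cofactor of the unfoldase Vcp, read 400.2, 403.6 and 601.9 against 296.4, 363.2 and 223.6. Its groups did not overlap, although the difference of -0.63 (SE 0.24, 95% interval -1.195 to -0.07) had a limma adjusted p of 0.338. The Thy pair was at -1.34, the numbered pair at -0.41 and the Rag pair at -0.14, and without the Thy pair the difference was -0.27. Vcp had 3 tested probe sets, between -0.39 and -0.08, and the lowest of these was at -0.04 without the Thy pair. The 9 probe sets come from 5 genes, and without the Thy pair their median was 0.05.

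Transcription factors of proteasome genes had 7 tested probe sets of 5 genes, 4 above 0, with a median of 0.02. Nfe2l1 was at -0.33 (SE 0.26) and -0.06 (SE 0.15), and Nfe2l2, the oxidative stress factor, at -0.22 (SE 0.15). Nfyc, a subunit of the factor that binds CCAAT, was at 0.26 (SE 0.19) at its probe set 94969_at. At the brighter Nfyc probe set 94968_at the difference was 0.02 (SE 0.14). The value of 94969_at was 0.08 without the Thy pair and 0.45 without the numbered pair, and that of Nfe2l2 was -0.10 without the numbered pair. As a second large complex of the cytosol for comparison, the CCT chaperonin had 11 tested probe sets, all above 0, with a median of 0.18. Its lowest limma adjusted p was 0.283, for Cct8 at 0.36 (SE 0.12). Cct3 was at 0.45 (SE 0.16, 0.68 without the numbered pair) at probe set 98446_s_at. The other tested Cct3 probe sets, 98153_at and 161238_f_at, were at 0.18 (SE 0.11) and 0.004 (SE 0.18). The differences between these lists and the proteasome subunits were not tested.

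**Figure D4:**
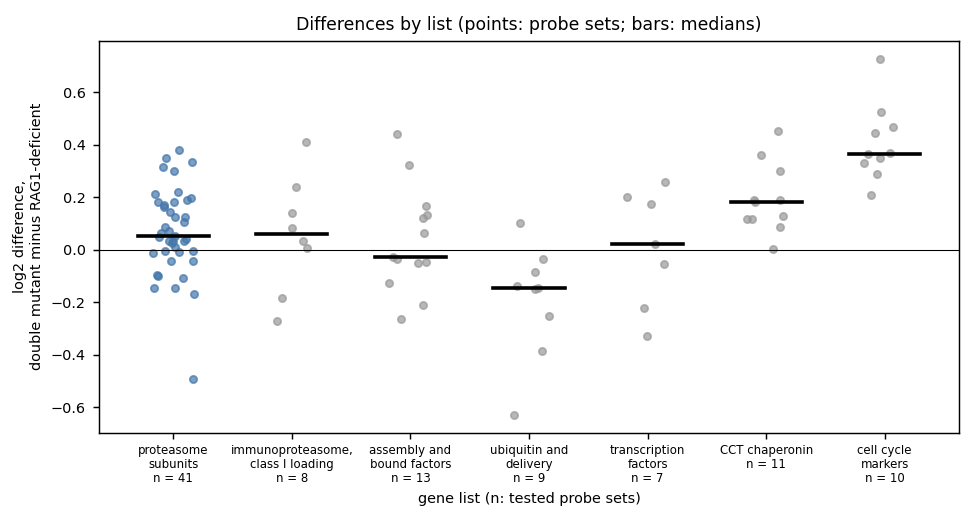
Log2 difference (double mutant minus RAG1-deficient, y axis) of each tested probe set (points) of the proteasome subunits, of related lists and of cell cycle markers (x axis), with black bars at the medians. Medians run from -0.15 for the list labelled ubiquitin and delivery through 0.05 for the 41 subunit probe sets to 0.37 for cell cycle markers. The points of the ubiquitin and delivery list are all of delivery genes, and no point of any list passed the adjusted test.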

How the data were processed

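The deposited values are linear intensities of 12488 probe sets, made with software that is not named in the sources used here. Trimmed by 2% at each end, array means were 500.293 to 500.37, so the deposited intensities were already scaled to a common mean, which can mask a global shift in RNA. After 66 control probe sets were left out, 12422 remained, of which the platform table, checked by Entrez number against RefSeq (10817 matched, 0 symbols updated), names 1 gene for 10833, several for 396 and none for 1193.

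Tests used the log2 of intensity plus 23 (the 20th percentile over the whole table), a scale that understates changes of dim probe sets. Probe sets above 86.5, the 40th percentile, on at least 3 arrays were kept, which left 7642 of 5751 named genes. limma 3.58.1 in R 4.3.3 was fitted with group and title style (lmFit, then eBayes with a trend), with two-sided p-values adjusted by Benjamini-Hochberg over all 7642 and a threshold of 0.05. Intervals are from the moderated fit. The pairing rests on the wording of titles, since no label gives replicate numbers. Deviations from the group means correlated at 0.57, 0.736 and 0.602 within styles and at -0.544 to 0.039 between them. The number of arrays limits the precision. The code was tested on simulated data.

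Named with values were the 6 highest and 6 lowest subunit probe sets, the catalytic, activator and ubiquitin-handling subunits, genes whose probe sets differed in sign, and the genes of lowest p in each related list. The subunits and all lists were chosen with earlier results of these data known. Alternatives covered the pseudocount, the filter, quantile scaling, the pairing, the trend, the choice of probe sets and leaving out arrays. Plots were made in Python 3.11.15 with matplotlib 3.10.9.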

Additional observations from a re-analysis of the deposited data

How the results depend on the processing

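No subunit probe set was called under any alternative, including the fit without pairs (no replicate block) and leaving out arrays. The same held for the brightest probe set of each gene and for probe sets without a suffix letter before _at. The count over all tested probe sets depended on the processing. With all arrays it was 43 higher and 8 lower, against 24 higher with a pseudocount of 1, 5 and 0 without a filter, 17 and 0 with quantile scaling, 3 and 0 without the replicate block, and 8 and 1 without a trend. Leaving out arrays, with or without pairs, gave 0 to 127 higher and 0 to 64 lower, the largest without both Rag-style arrays. The cause was not tested. The median of the subunits ranged from -0.062 to 0.204 when arrays were left out. In the same way the median was -0.027 to 0.193 for immunoproteasome and loading genes, with 0 to 1 called. It was -0.107 to 0.211 for assembly factors, -0.328 to 0.048 for substrate delivery genes, and -0.116 to 0.230 for transcription factors.

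Of 270 values of 18 named subunit probe sets under 15 settings, 29 had the other sign, all when arrays were left out, and 0 passed the threshold, with a lowest adjusted p by limma of 0.261. These ranged from -0.45 to 0.17 for Psma3, -0.23 to 0.39 for Psmb5 probe set 160559_at, -0.10 to 0.25 for Psmb6, -0.14 to 0.14 for Psmb7, -0.58 to 0.15 for Psmd1, -0.30 to 0.07 for Psmd4, -0.50 to 0.15 for Psmd10, -0.89 to 0.08 for Psmd11 probe set 160304_r_at, -0.70 to 0.43 for probe set 94796_at and -0.24 to 0.39 for Psme1. Akirin2 ranged from -0.55 to 0.02. A fit without pairs that leaves 2 arrays in a group assumes that both groups vary alike. The Ezh2 difference kept its sign throughout, from -1.83 to -1.21, and passed the threshold in the paired fits with each pseudocount or without the Rag pair. It did not without a filter, with quantile scaling, without a trend, without the numbered or the Thy pair, or in any fit without pairs.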
